A study of Setaria viridis with 40 samples.

Results

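The small heat shock protein (HSP) genes described here were 8 genes of green foxtail (Setaria viridis, strain ME034), a C4 grass, taken by their identifiers from the 38239 genes of the count table. They were the HSP21 genes Sevir.6G132300 and Sevir.9G474300, the HSP17.6C genes Sevir.9G462200, Sevir.5G090900, Sevir.5G091000 and Sevir.5G091100, the HSP15.7 gene Sevir.4G111300 and the HSP23.5 gene Sevir.1G333300. The gene names are those of the study's gene list. RNA came from the middle of the fourth leaf, with the leaves of 2 plants pooled in each replicate, and was measured by 3′-end sequencing, which counts tags near the end of each transcript. Plants stayed in the control condition (31 °C and 250 µmol photons per square metre and second; ctrl_0h, ctrl_1h, ctrl_2h and ctrl_4h), or were moved for 1, 2 or 4 h to high light (900 µmol at 31 °C; HL_1h, HL_2h, HL_4h) or to high temperature (40 °C at 250 µmol; HT_1h, HT_2h, HT_4h), with 4 replicates A to D in each of the 10 conditions. Every condition used the same unmodified strain, and each treatment ran in a chamber of its own, so that chamber and treatment cannot be told apart.

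Library totals ran from 1422507 to 4901131 reads with a median of 3694586, and 1 read was worth between 0.204 and 0.703 TPM, the deposited unit, in which each library's reads are scaled to the same total. No gene length enters these 3′ tag values, since a transcript gives tags near its end whatever its length. Of 5 leaf genes, PPDK, LHCb6, NADP-ME and RBCS_A stood between 1845 and 17348 TPM in every library, and the gene listed as PEPC_A stood between 10.8 and 92.2 TPM. A change in a leaf sample can be fewer cells that express a gene or less RNA per cell, which cannot be told apart. A gene was tested if it had at least 10 counts in at least 4 libraries. All 8 genes passed, 2 of them (Sevir.5G091100 and Sevir.9G474300) only through the HT_1h libraries. Called means an adjusted p under 0.05 in the quasi-likelihood test of edgeR, with the p-values of 14293 genes adjusted by the Benjamini-Hochberg method. Each test compared 4 libraries with 4, or with 3 at HL_1h.

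Small heat shock proteins, also known as the HSP20 family, are chaperones that work without ATP. They share an α-crystallin domain, bind proteins that begin to unfold and keep them from aggregating until HSP70 and its partners refold them. Plants have classes of them for the cytosol, the chloroplast, the mitochondrion and the peroxisome, and heat shock transcription factors (HSFs) switch many of the genes on when a leaf is heated.

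After 1 h at high temperature all 8 genes rose. Their summed level was 5.50, 6.47, 6.34 and 7.32 TPM in the ctrl_1h replicates A to D, and 2227, 1631, 3713 and 5045 TPM in those of HT_1h. The lowest heated library thus lay far above the highest control library. At HT_1h 8 of the 8 genes were called higher, where 5.07% of all genes tested were. Of these, 6 would pass the count minimum without the HT_1h libraries, and the other 2 had to be high there to be tested at all. Without any heated library HSP23.5 alone would pass, so the other genes could be tested only because they were high in heat. That limit applies to the counts at HT_2h and HT_4h too. At HT_2h 7 of 8 were called higher against 5.38% of all genes, and at HT_4h 3 of 8 against 4.22%. None was called lower at any of these times, where 5.41%, 5.37% and 5.6% of all genes were. The median log2 fold change of the 8 genes was 8.71 at HT_1h against -0.02 over all genes, and HT_1h held the highest mean of every one of the 8.

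**Figure D1:**
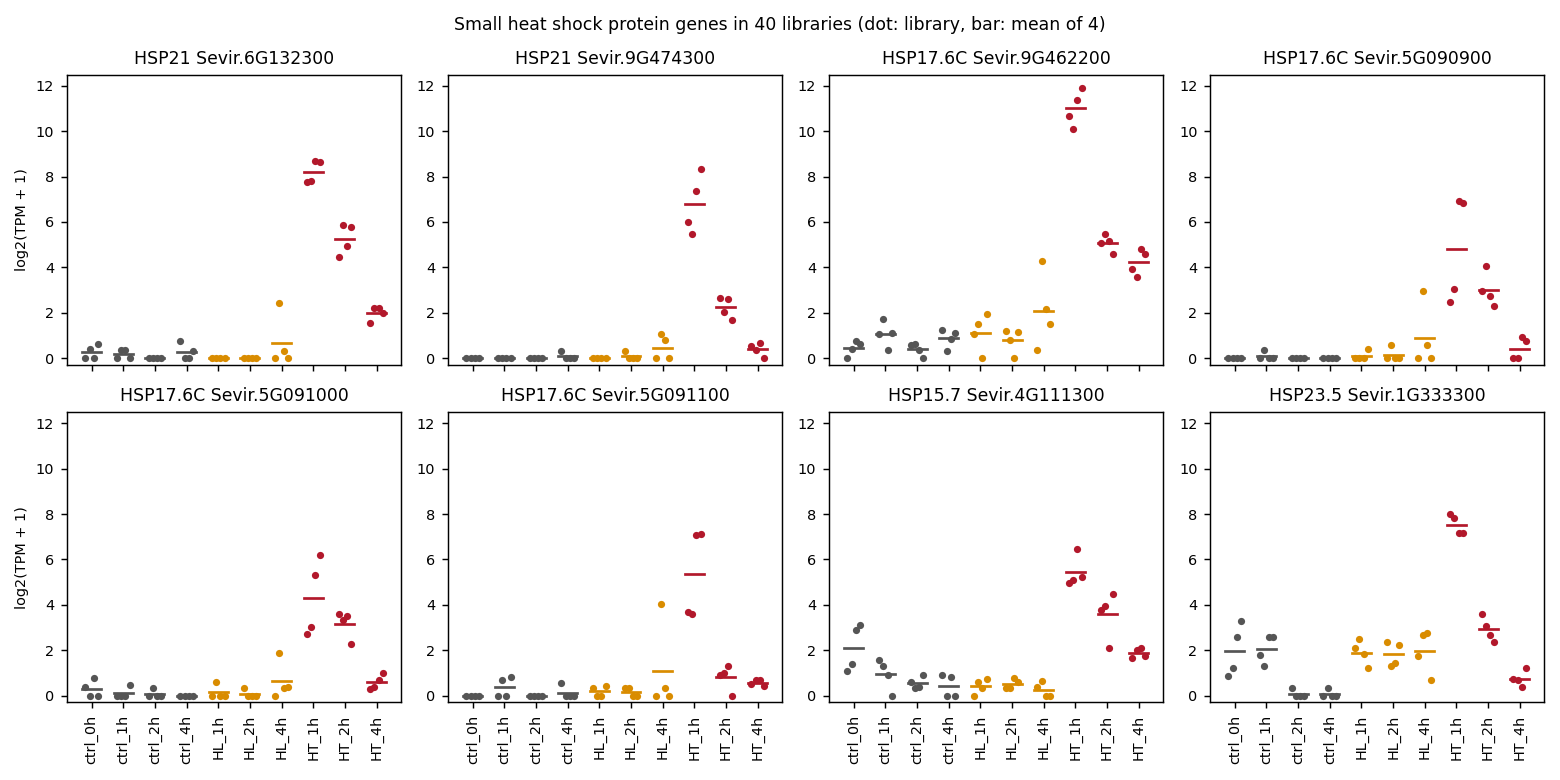
Level of each of the 8 small heat shock protein genes as log2(TPM + 1) on the vertical axis, for the 10 conditions on the horizontal axis (grey: control, orange: high light, red: high temperature). A dot is a library and a bar the mean of 4 libraries. The 4 HT_1h libraries lie above all control libraries in every panel, and above all high light libraries in 6 of the 8, the exceptions being Sevir.5G090900 and Sevir.5G091100, where replicate B of HL_4h (6.77 and 15.43 TPM) lies within the HT_1h range.

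HSP21 is the small HSP of the chloroplast in Arabidopsis, where it protects photosystem II and the plastid transcription machinery during heat. Sevir.6G132300 stood at 216, 224, 407 and 402 TPM in the HT_1h replicates A to D. Its level was 21.1, 57.5, 29.6 and 54.7 TPM at HT_2h, and 1.92, 3.61, 3.62 and 3.00 TPM at HT_4h. In the controls it was at 0 in 10 of 16 libraries and at most 0.674 TPM, so none of the heated groups overlapped a control library. Its 4603 counts at HT_1h against 2 at ctrl_1h gave a ratio of 2066 (exact 95% interval 572 to 17062, for counting error only; adjusted p = 1.73e-13). At HT_2h, 648 counts against 0 made it at least 207-fold higher, taking 3 counts over the group as the floor (adjusted p = 1.04e-09). At HT_4h the gene was still called, with a log2 fold change of 3.38 ± 0.85 (SE; adjusted p = 0.0107).

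The other HSP21 gene, Sevir.9G474300, was silent in 15 of the 16 control libraries, the remaining library having 0.225 TPM. It reached 62.4, 42.9, 162 and 326 TPM in the HT_1h replicates A to D and 5.29, 3.06, 5.03 and 2.25 TPM in those of HT_2h. These groups lay wholly above the controls, at least 635-fold at HT_1h (2121 counts against 0; adjusted p = 3.84e-10) and at least 20.2-fold at HT_2h (63 counts against 0; adjusted p = 0.00203). At HT_4h its levels of 0.427, 0.301, 0.603 and 0 TPM overlapped the controls, and 5 counts against 1 gave no call (adjusted p = 0.556).

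HSP17.6C is a class I cytosolic small HSP in Arabidopsis, a class that makes up much of the small HSP protein of heated plant cells. Because near-identical copies may share reads, the 4 genes of that name were also summed. The sum stood at 1.101, 3.24, 0.288 and 2.31 TPM in the ctrl_1h replicates A to D, and at 1667, 1107, 2915 and 4140 TPM in those of HT_1h. It was 51.5, 69.2, 52.7 and 30.9 TPM at HT_2h and 14.9, 11.7, 28.96 and 25.0 TPM at HT_4h. Every heated library exceeded every control library. The log2 fold change over the control of the same hour was 10.55 ± 0.80 at HT_1h (SE; adjusted p = 9.66e-13), 6.94 ± 0.88 at HT_2h (adjusted p = 7.18e-07) and 4.20 ± 0.78 at HT_4h (adjusted p = 0.000828). In order of mean level, the sum was highest at HT_1h (2457 ± 1353 TPM, SD, n = 4), then HT_2h (51.1 ± 15.68), HT_4h (20.2 ± 8.15) and HL_4h (12.6 ± 20.7), with the means of the other conditions between 0.392 and 1.80 TPM. From HT_1h to HT_2h it fell by 5.71 on the log2 scale (adjusted p = 1.15e-08), whereas the neighbours HT_4h and HT_2h (adjusted p = 0.0519) and HT_4h and HL_4h (adjusted p = 0.163) were not called different.

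The 4 copies contributed unequally, and their shares moved with time. Sevir.9G462200 made up 94.6% ± 4.2 (SD, n = 4) of the sum at HT_1h, 67.1% ± 5.6 at HT_2h and 93.2% ± 1.7 at HT_4h. Its own level was 1644, 1081, 2622 and 3818 TPM in the HT_1h replicates A to D, against 1.101, 2.35, 0.288 and 1.155 TPM at ctrl_1h, a log2 fold change of 10.88 ± 0.66 (SE; adjusted p = 4.15e-15). It was the copy still called at HT_4h, where it stood at 14.3, 10.8, 26.9 and 22.98 TPM (log2 fold change 4.24 ± 0.65, adjusted p = 8.78e-05).

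The 3 copies with neighbouring identifiers, Sevir.5G090900, Sevir.5G091000 and Sevir.5G091100, were near 0 in the controls, with no control library above 0.770 TPM. At HT_1h Sevir.5G090900 stood at 4.47, 7.37, 119 and 113 TPM in replicates A to D, Sevir.5G091000 at 5.65, 7.10, 38.9 and 72.6 TPM, and Sevir.5G091100 at 12.0, 11.2, 134 and 136 TPM. All were above every control library, with replicates A and B below C and D. The ratios to ctrl_1h were 780 for Sevir.5G090900 (869 counts against 1, exact 95% interval 140 to 30841; adjusted p = 2.87e-05) and 394 for Sevir.5G091000 (439 counts against 1, interval 70.3 to 15598; adjusted p = 2.32e-07). For Sevir.5G091100 the log2 fold change was 7.81 ± 1.09 (SE; adjusted p = 4.91e-06). Their calls then differed, though the copies were not tested against each other. At HT_2h Sevir.5G090900 held 6.83, 15.71, 5.62 and 3.86 TPM and Sevir.5G091000 held 11.01, 8.98, 10.4 and 3.86 TPM, both called higher (at least 44.5-fold, adjusted p = 0.00629, and a ratio of 135, interval 23.9 to 5382, adjusted p = 8.64e-05). Sevir.5G091100 had dropped to 0.881, 1.02, 1.48 and 0 TPM and was not called (adjusted p = 0.284). None of these 3 copies was called at HT_4h.

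The study's list gives the name HSP17.6C to 4 further genes, and they behaved in different ways. Sevir.9G461800 and Sevir.1G100500 were already at 208 ± 77 and 126 ± 25 TPM (SD, n = 4) at ctrl_1h, and reached 2707 ± 1013 and 244 ± 60 TPM at HT_1h. Sevir.5G091200 and Sevir.9G462100 were near 0 at ctrl_1h (0.413 and 0.289 TPM) and reached 381 ± 368 and 100 ± 29 TPM at HT_1h. All of them were called higher at HT_1h. With all 8 copies summed, the log2 fold change was 4.17 ± 0.27 at HT_1h (SE; adjusted p = 1.43e-14) and 0.36 ± 0.23 at HT_4h, where the call was lost (adjusted p = 0.357).

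HSP15.7 is a peroxisomal small HSP in Arabidopsis. Sevir.4G111300 stood at 1.93, 1.47, 0.864 and 0 TPM in the ctrl_1h replicates A to D, and at 30.4, 32.8, 86.4 and 36.1 TPM in those of HT_1h. It held 12.8, 14.5, 3.26 and 21.6 TPM at HT_2h and 2.14, 3.01, 3.32 and 2.33 TPM at HT_4h. At each hour the heated group lay above the control of that hour without overlap. The log2 fold changes of 5.37 ± 0.53 at HT_1h (SE; adjusted p = 1.43e-09), 4.69 ± 0.63 at HT_2h (adjusted p = 1.98e-06) and 2.50 ± 0.75 at HT_4h (adjusted p = 0.0288) were all called, but the call at HT_4h was lost with the second index as covariate on recovered reads (adjusted p = 0.0628; 3 of 4 HT_4h libraries and no ctrl_4h library carried the index AK10751), and without replicate B or D of ctrl_4h or replicate B or C of HT_4h (log2 fold change 2.11 to 2.47, adjusted p 0.0584 to 0.0949).

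HSP23.5 is a mitochondrial small HSP in Arabidopsis. Sevir.1G333300 was measurable in every library of the first hours, with 0.844, 1.30, 4.92 and 8.72 TPM in the ctrl_0h replicates A to D and 2.48, 1.47, 4.896 and 5.01 TPM in those of ctrl_1h. At HT_1h it reached 252, 225, 143 and 142 TPM, with no overlap (log2 fold change 5.82 ± 0.44, SE; adjusted p = 8.29e-13). It then stood at 11.01, 7.35, 5.33 and 4.18 TPM at HT_2h and at 0.641, 0.601, 0.302 and 1.33 TPM at HT_4h, when 10 counts against 1 in ctrl_4h were not called (adjusted p = 0.183).

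The control level of HSP23.5 itself fell during the day. It was 0.250, 0, 0 and 0 TPM at ctrl_2h and 0, 0.242, 0 and 0 TPM at ctrl_4h, below every library of ctrl_0h and ctrl_1h. The ratio to ctrl_0h was 0.022 at ctrl_2h (1 count against 30, exact 95% interval 0.00054 to 0.132; adjusted p = 0.00245) and 0.0193 at ctrl_4h (1 count against 30, interval 0.000473 to 0.116; adjusted p = 0.000201). HSP15.7 also fell in the controls, from 1.13, 1.63, 6.33 and 7.63 TPM at ctrl_0h to at most 0.849 TPM at ctrl_2h and 0.899 TPM at ctrl_4h, log2 fold changes of -2.84 and -3.02 (adjusted p = 0.0158 and 0.00194). The first of these calls was lost without replicate C or D of ctrl_0h (adjusted p 0.0537 and 0.102). Replicates C and D, which held the higher ctrl_0h levels of both genes, had the lowest totals of all libraries (1422507 and 1835391 reads). Their HSP15.7 levels rested on 9 and 14 reads. Against ctrl_0h these 2 of the 8 genes were the ones called in either direction at ctrl_2h and at ctrl_4h, where 8.58% and 37.4% of all genes were called in either direction. At ctrl_1h against ctrl_0h, where 6% of all genes were, edgeR called 0 of 8, with 1 lower at an unadjusted p under 0.05 and 0 called by DESeq2 or limma.

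Under high light HSP23.5 stood above the control at 2 and 4 h. It stood at 3.22, 4.65, 2.53 and 1.29 TPM in the HL_1h replicates A to D, at 4.06, 1.46, 1.70 and 3.72 TPM in those of HL_2h and at 2.40, 5.41, 5.72 and 0.602 TPM in those of HL_4h. These groups overlapped each other, and neither HL_2h nor HL_4h was called different from HL_1h (log2 fold change -0.57 ± 0.56 and -0.38 ± 0.54, SE; adjusted p = 0.566 and 0.633). Against the control of the same hour the ratio was 37.2 at HL_2h (44 counts against 1, exact 95% interval 6.33 to 1501; adjusted p = 0.000826) and 49.7 at HL_4h (53 counts against 1, interval 8.54 to 1998; adjusted p = 0.000238), and at HL_1h there was no call (log2 fold change 0.02 ± 0.56, adjusted p = 0.989). The effect of high light was larger at 4 h than at 1 h by 4.95 ± 1.23 on the log2 scale (SE; adjusted p = 0.0137). This was 1 of the 8 genes for that difference, against 2.08% of all genes. At 4 h HSP23.5 was the member that stood lower in heat than in high light, with a log2 fold change of -2.08 (adjusted p = 0.0159, and 0.0894 without replicate C of HL_4h or 0.0564 without replicate C of HT_4h).

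**Figure D2:**
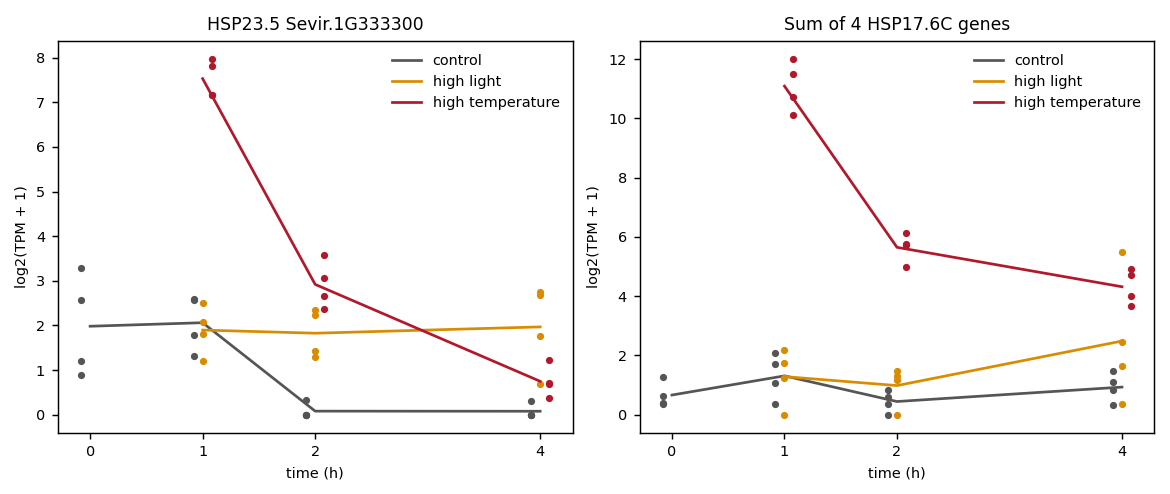
Level as log2(TPM + 1) on the vertical axis against time in hours for HSP23.5 (left) and for the sum of 4 HSP17.6C genes (right), with a dot per library and lines through the means of 4 libraries (grey: control, orange: high light, red: high temperature). HSP23.5 falls in the controls between 1 and 2 h while its high light libraries overlap from hour to hour, and the HSP17.6C sum peaks at HT_1h.

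Within high temperature the transcripts were lower at 2 and 4 h than at 1 h, by amounts that varied from gene to gene. From HT_1h to HT_2h edgeR called all 8 genes lower, where 4.07% of all genes were, while DESeq2 and limma each called 6. From HT_1h to HT_4h edgeR called all 8 again, where 15.6% were. Of these, Sevir.5G091100 and Sevir.9G474300 could be tested only through their high HT_1h counts, a choice that favours a fall. Between 1 and 2 h of heat the log2 fold change was smallest in size for Sevir.5G091000 (-1.92 ± 0.54, SE) and HSP15.7 (-1.99 ± 0.39), followed by Sevir.5G090900 (-2.99 ± 0.74) and Sevir.6G132300 (-3.10 ± 0.35). It was -4.81 ± 0.39 for HSP23.5, -5.33 ± 0.51 for the HSP21 gene Sevir.9G474300, -6.19 ± 0.50 for Sevir.9G462200 and -6.45 ± 0.92 for Sevir.5G091100. Differences in fall between genes were not tested. For 6 of the 8 genes every HT_2h library lay below every HT_1h library, but Sevir.5G090900 and Sevir.5G091000 overlapped, with 1 of 4 HT_2h libraries below. Replicates A and B of both hours carried the second index AK2941 and were separate pools of plants. In them Sevir.5G091000 stood at 5.65 and 7.10 TPM at HT_1h and at 11.01 and 8.98 TPM at HT_2h. Sevir.5G090900 stood at 4.47 and 7.37 TPM at HT_1h and at 6.83 and 15.71 TPM at HT_2h. The HT_1h levels of both genes above these were in replicates C and D, of the index AK10751. Over 14 alternatives the call held in 7 for Sevir.5G091000 (adjusted p up to 0.518), 9 for Sevir.5G090900 (up to 0.424) and 11 for HSP15.7 (up to 0.53), and in all that could be run for the other 5 genes. The call of Sevir.5G091000 was lost without HT_1h replicate D, HT_2h replicate B or D, or 1 further HT_1h library (adjusted p 0.056 to 0.276). The header of that HT_1h library is repeated in the count table, but its values match replicate C. The call of Sevir.5G090900 was lost without the same HT_1h library (adjusted p = 0.0569). From HT_2h to HT_4h 6 of 8 were called lower, where 7.23% of all genes were, Sevir.5G090900 not without replicate B of HT_2h (adjusted p = 0.0615). Sevir.9G462200, at 33.7 ± 8.3 and then 18.7 ± 7.4 TPM (SD, n = 4), was not called (adjusted p = 0.117), nor was Sevir.5G091100 (adjusted p = 0.771).

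Whether the effect of heat relative to the control of the same hour was smaller at 4 h than at 1 h was tested directly. The effect was called smaller for 2 of 8 genes, where 2.69% of all genes were. They were Sevir.9G462200, with a log2 difference of -6.65 (adjusted p = 0.00141), and the HSP21 gene Sevir.6G132300, with -7.39 (adjusted p = 0.0341). The call of Sevir.6G132300 was lost without any of 5 libraries, ctrl_1h A, HT_1h D, ctrl_4h A, ctrl_4h D and HT_4h B (adjusted p 0.0502 to 0.398). The number called was 4 with DESeq2 and 8 with limma on log2(TPM + 1). Where control counts were at or near 0 the edgeR test could not decide, so an uncalled gene need not have kept its heat effect. Sevir.5G090900 and Sevir.5G091000, with 0 counts at ctrl_4h, had log2 differences of -5.78 and -4.34 with SE of 124 and 35.6. The median log2 difference of the 8 genes was -5.94, against 0.02 over all genes. Between 4 h and 2 h, where the effect was smaller for 1.48% of all genes, edgeR called 0 of 8, with 1 at an unadjusted p under 0.05, 1 called by DESeq2 and 4 by limma. The same limit holds there, with SE of 35319 for Sevir.5G090900 and 12.4 for Sevir.5G091000.

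Under high light the number of the 8 genes called higher ran from 0 to 3, by hour. At HL_1h edgeR called 0 of 8 in either direction, 0 also at an unadjusted p under 0.05 and 0 by DESeq2 or limma, where 9.29% of all genes were called higher and 9.08% lower. At HL_2h it was 1 of 8, HSP23.5, against 16.5% of all genes. At HL_4h it was 3 of 8, against 13.5%. Besides HSP23.5 these were Sevir.9G462200, with 0.299, 18.7, 3.48 and 1.81 TPM in the HL_4h replicates A to D against 1.35, 0.242, 0.784 and 1.14 TPM at ctrl_4h, and Sevir.5G091100, with 0, 15.43, 0.249 and 0 TPM against 0.450, 0, 0 and 0 TPM. In both genes replicate B was the high library and replicate A lay within the control range. The log2 fold change of Sevir.9G462200 was 2.36 ± 0.72 (SE; adjusted p = 0.0133), and the ratio for Sevir.5G091100 was 27.2 (58 counts against 2, exact 95% interval 7.19 to 230; adjusted p = 0.0377).

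Replicate B of HL_4h was also the highest for both HSP21 genes and for Sevir.5G090900 and Sevir.5G091000, at 4.33, 1.08, 6.77 and 2.71 TPM, none of which was called at HL_4h. The sum of the 4 HSP17.6C genes was 0.299, 43.6, 4.48 and 2.11 TPM in replicates A to D and was called with a log2 fold change of 3.18 ± 0.81 (SE; adjusted p = 0.00297). Without replicate B the sum had a log2 fold change of 0.97 (adjusted p = 0.405), Sevir.9G462200 one of 0.84 (adjusted p = 0.459) and Sevir.5G091100 one of -0.44 (adjusted p = 0.923), so that HSP23.5 alone stayed called. The sequencing index also differed here, as all ctrl_4h libraries carried the second index AK2941 and 3 of 4 HL_4h libraries the index AK10751. With the index as covariate on reads recovered from the TPM files, HSP23.5 was again the 1 gene called. The adjusted p was 0.0668 for Sevir.9G462200 and 0.421 for Sevir.5G091100. On the count columns of known library 4 were called, namely HSP23.5, Sevir.9G462200, Sevir.5G090900 and Sevir.5G091000. In that fit Sevir.5G091100 did not reach the count minimum and was not tested. The call of Sevir.5G091100 was also lost without any 1 of the ctrl_4h libraries (adjusted p 0.0521 to 0.0854). With all 8 HSP17.6C copies summed, the log2 fold change at HL_4h was -0.59 (adjusted p = 0.0618). HSP15.7 was at most 0.541 TPM at HL_4h. HSP21 Sevir.6G132300 had 0 reads in every HL_1h and HL_2h library, and 0 counts at HL_2h against 648 at HT_2h put heat at least 245-fold above high light.

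**Figure D3:**
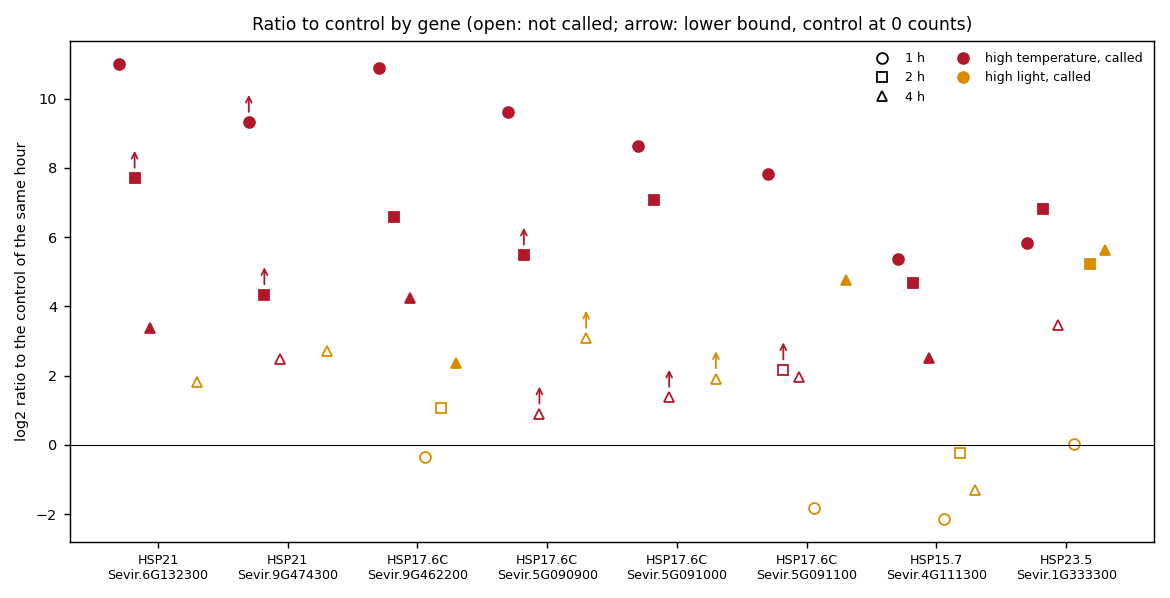
Log2 ratio of each treated group to the control of the same hour (vertical axis) for the 8 genes (horizontal axis), red for high temperature and orange for high light, with circles for 1 h, squares for 2 h and triangles for 4 h. Values are fitted log2 fold changes, ratios of summed counts where a group had 1 to 3 counts, or lower bounds with an arrow where the control had 0 counts; filled symbols were called, open ones were not, and groups with at most 3 counts on both sides are left out. All 8 circles for heat are filled, and all circles for high light are open.

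Set directly against each other at matched hours, high temperature exceeded high light at 1 h in 8 of 8 genes, where 13% of all genes were called higher, and at 2 h in 7 of 8, against 19.3%. At 1 h Sevir.5G091100 and Sevir.9G474300 had to be high at HT_1h to be tested at all. All genes but HSP23.5 could be tested only through libraries of heated leaves. The exception at 2 h was Sevir.5G091100 (14 counts against 2; adjusted p = 0.29), and the call of HSP23.5 was lost without replicate A of HT_2h (adjusted p = 0.0549). At 4 h 2 of 8 were called higher, against 16.1%: HSP15.7, with a ratio of 15.0 (38 counts against 3, exact 95% interval 4.76 to 75.9; adjusted p = 0.000996), and Sevir.9G462200, with a log2 fold change of 1.88 ± 0.50 (SE; adjusted p = 0.00275). The HSP17.6C sum was not called at 4 h (log2 fold change 1.02 ± 0.57, adjusted p = 0.163), but was without replicate B of HL_4h (3.22, adjusted p = 2.82e-05). HSP23.5 was called lower in heat at that hour, 1 of 8 against 19.6% of all genes.

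The HT_1h libraries themselves fell into pairs. Replicates A and B carried the second index AK2941 and replicates C and D the second index AK10751. In the reads recovered from the TPM files, 4 of the 8 genes were called higher in C and D than in A and B, where 0.336% of all genes were. On the log2 scale the difference was 4.34 for Sevir.5G090900 (adjusted p = 0.0024), 3.58 for Sevir.5G091100 (adjusted p = 0.00866), 3.17 for Sevir.5G091000 (adjusted p = 0.00511) and 2.25 for the HSP21 gene Sevir.9G474300 (adjusted p = 0.00438). The neighbouring HSP17.6C copies may share reads. The sum of the 4 HSP17.6C genes (1.38, adjusted p = 0.411) and its main copy Sevir.9G462200 (1.28, adjusted p = 0.31) were not called. Nor were HSP15.7 (0.99, adjusted p = 0.459) and the HSP21 gene Sevir.6G132300 (0.92, adjusted p = 0.39). HSP23.5 went the other way without a call (-0.71, adjusted p = 0.51). Over all libraries, with condition in the fit, 6.93% of genes differed between the indices. Of the 8, Sevir.5G091100 was one of them, higher with AK10751 by 2.75 on the log2 scale (adjusted p = 0.00372), and the other 7 were not called (adjusted p 0.0594 to 0.853). Within the libraries of each index, 2 against 2, all 8 genes were still called higher at HT_1h, where 1.91% of all genes were with AK2941 and 3.32% with AK10751. Among them Sevir.5G091100 and Sevir.9G474300 had to be high at HT_1h to be tested. The test of the difference between those 2 effects called 0 of 8 genes, as it did 0 of all 14302 genes, and none of the 8 reached an unadjusted p under 0.05. With so few libraries and control reads at or near 0 it could hardly find a difference. For Sevir.9G474300, with 0 reads at ctrl_1h, it gave 2.25 on the log2 scale at an unadjusted p of 0.9996. The 0 calls therefore do not show equal effects. At HL_4h replicate B shared AK10751 with replicates A and D, which held at most 1.81 TPM of any HSP17.6C or HSP21 gene of the 8.

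**Figure D4:**
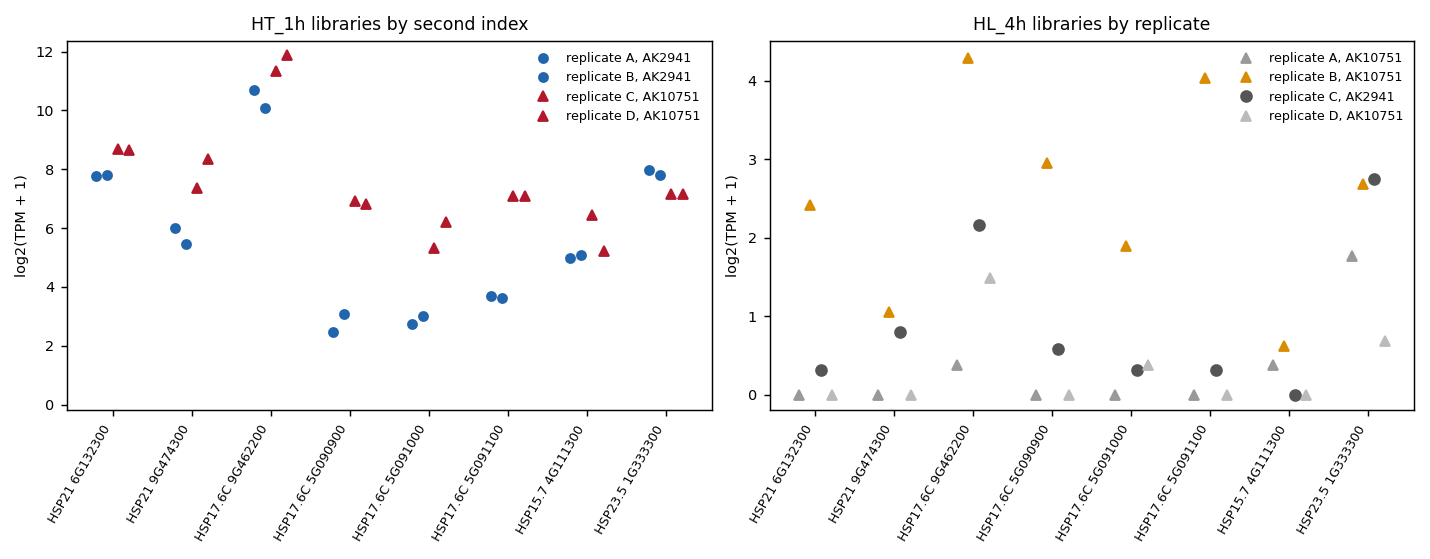
Level of the 8 genes (horizontal axis) as log2(TPM + 1) (vertical axis) in each of the 4 HT_1h libraries (left) and the 4 HL_4h libraries (right), with circles for the second index AK2941 and triangles for AK10751. At HT_1h replicates C and D lie above A and B for 7 of the 8 genes and below them for HSP23.5, and at HL_4h replicate B is the highest library for 7 genes.

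Other heat shock genes of the study's list gave the setting for these values. The list was chosen by the study and is no independent evidence of a direction. A gene near 0 in the controls could reach the count minimum through heated libraries alone, a choice that favours a rise. How many of the genes below did so was not counted. Of 34 other HSP20-family genes 13 could be tested, and 10 of them rose at HT_1h, 8 at HT_2h and 2 at HT_4h, none falling, where 5.07%, 5.38% and 4.22% of all genes rose. Their median log2 fold change was 3.29 at HT_1h against -0.02 over all genes. The largest rises were those of Sevir.5G129100 (HSP17.6), 2 counts at ctrl_1h against 3034 at HT_1h (ratio 1362, exact 95% interval 377 to 11248), and of the HSP17.6C copies Sevir.5G091200 (log2 fold change 9.90 ± 1.0998, SE) and Sevir.9G462100 (3 counts against 1487, ratio 445, interval 152 to 2160). At HL_4h 4 of the 13 were called higher and 2 lower, where 13.5% of all genes were called higher and 12.6% lower. The first 3 by fitted change were Sevir.5G129200 (HSP17.6B), at least 11.2-fold higher, and the same HSP17.6C copies, with 149 counts against 2 for Sevir.5G091200 and 28 against 1 for Sevir.9G462100. Here too the counts sat unevenly, Sevir.5G091200 holding 35.5 TPM in replicate B, 4.48 TPM in replicate C and 0 TPM in A and D.

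Among the large HSPs, which refold proteins with ATP, 23 of 59 tested genes rose and 1 fell at HT_1h, with a median log2 fold change of 0.29, and 25 rose and 6 fell at HL_4h, with a median of 0.50 against 0.06 over all genes. Over all genes 5.07% rose and 5.41% fell at HT_1h, and 13.5% rose and 12.6% fell at HL_4h. HSP90.1 (Sevir.7G029400) had a log2 fold change of 9.97 ± 0.73 (SE) at HT_1h, HSP70 (Sevir.5G381300) of 7.13 ± 0.61 and HSP70T-2 (Sevir.9G492400) of 5.19 ± 0.59. Of 10 tested HSF genes, whose proteins bind heat shock elements in the promoters of HSP genes, 4 rose and none fell at HT_1h, with a median of 0.66. Those with the largest change were HSFB2B (Sevir.6G242500, log2 fold change 5.27 ± 0.78), HSFB2C (Sevir.2G292500, 1.99 ± 0.26) and HSFA6B (Sevir.9G247200, 1.05 ± 0.29).

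At HL_4h the large HSPs with the largest change were HSP90.1, with 0, 21.1, 0.497 and 0.301 TPM in replicates A to D (81 counts against 3, ratio 25.3, exact 95% interval 8.36 to 125), an HSP70 (Sevir.3G222000) with 11.1, 50.3, 87.1 and 14.4 TPM (log2 fold change 3.17 ± 0.64, SE) and HSP70 Sevir.5G381300 with 1.20, 40.6, 17.2 and 0.902 TPM (2.83 ± 0.68). Replicates B and C were the highest for each of them, as they were for Sevir.9G462200. Among the HSFs Sevir.7G215000 (HSFBA2) was at least 3.44-fold higher, HSFA4A (Sevir.5G321500) had a log2 fold change of 0.82 ± 0.29 and HSFA2A (Sevir.9G055900) one of -0.65 ± 0.22. The fits of these genes were not repeated without single libraries.

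**Figure D5:**
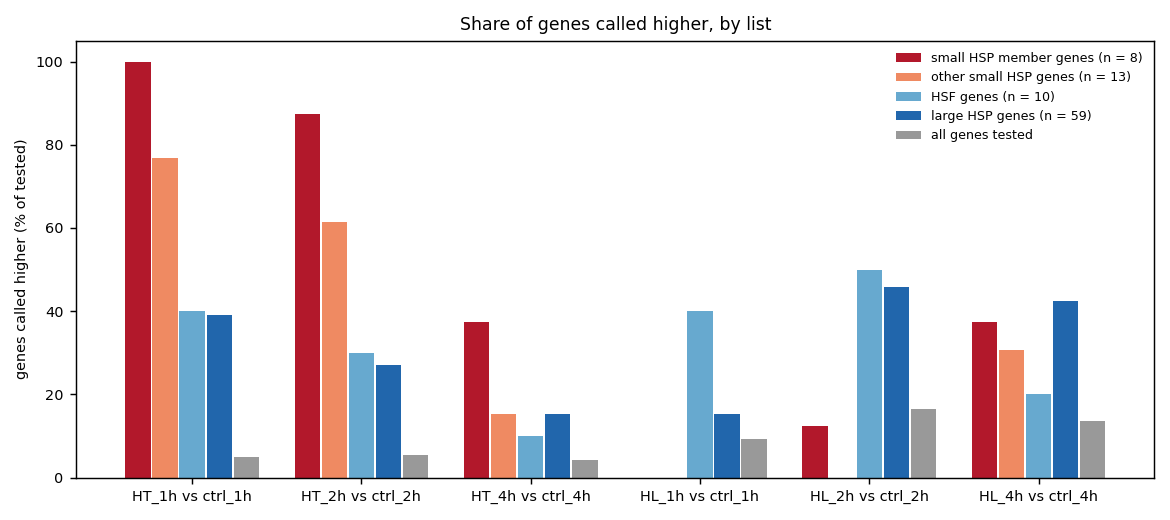
Share of tested genes called higher (vertical axis, percent) in each treated condition against its time-matched control (horizontal axis), for the 8 small HSP genes, 13 other HSP20-family genes, 10 HSFs, 59 large HSPs and all 14293 genes tested. At HT_1h 8 of 8 small HSP genes and 10 of 13 other HSP20-family genes were called higher, and at HL_1h none of either list. Of the 8 genes, all but HSP23.5 could be tested only through heated libraries, and for the other lists this was not counted.

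The genes most like these 8 in profile were found from the Pearson correlation, over the 10 condition means of log2(TPM + 1), with the mean of the 8 standardised profiles. The 10 closest had correlations of 0.974 to 0.992. These values rest largely on the peak at HT_1h, and the conditions share no libraries but the same sequencing design. HSP90.1 came first (0.992), followed by the HSP17.6C copy Sevir.5G091200 (0.990) and Sevir.7G066700 (0.987), which is annotated with the Arabidopsis peptidyl-prolyl isomerase ROF1 (FKBP62) and stood at 1.51 TPM on average at ctrl_1h and 562 TPM at HT_1h. Next were Sevir.2G065200 (0.987), a PHD finger gene related to Arabidopsis EBS that went from 18.7 to 34.8 TPM, HSP70T-2 (0.986), HSP70 Sevir.5G381300 (0.983) and Sevir.6G211500 (0.981), an OTU-type cysteine proteinase gene whose highest condition mean was 4.51 TPM. Sevir.5G129100 (HSP17.6, 0.978), HSP90 Sevir.4G282600 (0.975) and HSFB2B (0.974) closed the list. By Spearman's rank correlation 3 of the 10 closest genes were the same.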

How the data were processed

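The QuantSeq 3′ FWD kit gave 40 libraries (10 conditions of 4 biological replicates). The authors trimmed the reads with Trim Galore 0.6.2, quantified them with Salmon 1.1.0 on the Sviridis_311_v2 transcripts, and deposited estimated counts per gene (expected counts) in a matrix and TPM values per library. Reads of near-identical copies may be split between them by this quantification. The header of 4 count columns names another library than the one whose values they hold. A column was used where header and values gave the same condition, which left 39 of 40, with 3 at HL_1h, and 1 per-sample column not used. Estimated counts went into edgeR as deposited and were rounded to whole numbers for DESeq2.

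The 14293 genes that reached 10 counts in 4 or more libraries were fitted with edgeR 4.0.16 (R 4.3.3; TMM factors, quasi-likelihood test, 1 term per condition, Benjamini-Hochberg adjustment). SE is the fold change over the root of F. Depth, from 1422507 to 4901131 counts, limits genes near 0. A group with 0 counts was set to 3 counts over the group as a floor. With 1 to 3 counts the ratio of scaled sums was given with an exact conditional 95% interval, which covers counting error only, as PCR copies were not marked. Alternatives used DESeq2 1.42.0 and limma 3.58.1 on log2(TPM + 1) and log2(TPM + 0.1), other scalings, filters, covariates and subsets. Whole reads were also recovered from the deposited TPM values (95.3% to 96.6% whole within 0.05). By a step fitted to low values alone, 12 of the 40 libraries (2 at ctrl_1h, none at HT_1h) had under 95% of those values whole within 0.1. Recovered reads served only for alternatives and comparisons by index. The edgeR step was tested on simulated data for HT_1h against ctrl_1h (14293 genes, 200 changed; 64% recovered, 8 false calls).

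The replicates were separate pools of 2 plants. The replicate letters were not taken as pairs. Correlations of same-lettered deviations ran from -0.222 to 0.245. Their mean by contrast ran from -0.157 to 0.033, against -0.0098 to 0.053 for other letters. With 4 libraries in a group these values cannot show that samples were unpaired. The members, the lists and the tests were chosen with earlier results of these data known. Named genes were all 8 members, all HSP17.6C copies, the 3 genes of each other list with the largest fitted change among those called at HT_1h and HL_4h, and the 10 genes most alike in profile. Contrasts between times within a treatment were added after the levels had been seen.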

Additional observations from a re-analysis of the deposited data

Results flagged for a closer look

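Among 46 groups of 4 libraries, 6 held a library far from the other 3 by Dixon's criterion, which flags about 1 group in 20 by chance, and the 46 groups share libraries. In 5 of the 6 the library was replicate B of HL_4h. It had 6.77 TPM of Sevir.5G090900 against 0 to 0.497 TPM in the other 3 libraries, 2.71 TPM of Sevir.5G091000 against 0 to 0.301 TPM, 15.43 TPM of Sevir.5G091100 against 0 to 0.249 TPM, and 4.33 TPM of HSP21 Sevir.6G132300 against 0 to 0.249 TPM. The sum of the 4 HSP17.6C genes was 43.6 TPM there against 0.299 to 4.48 TPM. The other was replicate C of HT_1h, with 86.4 TPM of HSP15.7 (Sevir.4G111300) against 30.4 to 36.1 TPM.

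Effects that differed between time points under the same contrast were 4 in number, each by edgeR's test of the difference. The heat effect at 4 h was below that at 1 h by a log2 difference of -7.39 for Sevir.6G132300 (adjusted p = 0.0341), -6.65 for Sevir.9G462200 (adjusted p = 0.00141) and -6.34 for the HSP17.6C sum (adjusted p = 0.00854). The effect of high light on HSP23.5 was above that at 1 h by 4.95 (adjusted p = 0.0137). In the last case the control level fell over these hours, and HL_4h was not called different from HL_1h (log2 fold change -0.38, adjusted p = 0.633).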

How the results depend on the processing

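The number of genes called higher at HT_1h (7 to 8), HT_2h (7) and HL_2h (1) and their directions held under all 14 alternatives. At HL_4h the count of 3 became 5 without the low-count filter and 1 with only the conditions of the contrast in the fit, with limma on log2(TPM + 0.1) or without a filter, and with the second index as covariate on recovered reads (added after seeing the data). The count for a smaller heat effect at 4 h than at 1 h (2) became 4 with DESeq2, 8 with limma on log2(TPM + 1) with or without the filter and 6 on log2(TPM + 0.1). For 4 h against 2 h, 0 became 1 without the filter, with DESeq2 and with only the contrast's conditions, and 4, 2 and 3 in those limma fits. The larger high light effect at 4 h (1) became 0 with limma without the filter and with the replicate block on columns of known letter. The HSP17.6C sum at HL_4h (log2 3.18) was 1.99 and 1.55 in the limma fits on log2(TPM + 0.1) and without the filter, both uncalled, and -0.59 with all 8 copies, which also gave 0.36 at HT_4h, uncalled. For HT_4h against HL_4h it became called with limma (1.83, with or without the filter) and with the replicate block (1.53). The block changed no other count by over 1.5 times.

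Leaving out a library each time, the counts ran from 1 to 3 at HL_4h, 1 to 2 for the smaller heat effect and 1 to 2 at ctrl_2h, and the sum from 0.97 to 3.57 at HL_4h, 0.62 to 3.22 for HT_4h against HL_4h and -6.87 to -5.95 for the smaller heat effect, whose call was lost without replicate A of ctrl_4h (-5.98, adjusted p = 0.0741). Sevir.5G091100 at HL_4h ran from 3.97 to 6.43 without a ctrl_4h library and reversed to -0.44 without replicate B. The causes were not tested. Depth limited all values under about 1 TPM.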
